A study of Mus musculus with 10 samples.

Results

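The amino acid stress response genes considered here are Atf4, Atf3, Ddit3, Trib3, Chac1, Sesn2, Asns, Phgdh, Psat1 and Shmt2. They are a named set of 10 among the 18193 genes that probe sets of exactly 1 gene symbol measured, and all 10 were on the array, with 23 of the 34945 such probe sets. Each gene's level is the log2 value of its brightest probe set on average, and its other probe sets are given beside it. The samples were C57BL/6 mouse embryonic stem cells that had differentiated for 8, 17 or 24 days. At day 8 there were cultures with keratinocyte growth factor (KGF, an epithelial mitogen) and control cultures. At days 17 and 24 there were cultures with KGF and DCI together, with DCI alone, with KGF alone, and controls. The labels do not spell DCI out. It is read here as dexamethasone with agents that raise cAMP, after the title of the series, which asks whether these factors support differentiation into alveolar type II cells, the surfactant producers of the lung. Each of the 10 conditions was 1 array with no replicate, and whether an array held 1 culture or a pool is not given in the sources used here.

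When amino acids run short, uncharged tRNA activates the kinase GCN2, which phosphorylates the translation factor eIF2. Other eIF2 kinases respond to misfolded protein in the endoplasmic reticulum, to double-stranded RNA and to lack of haem. General translation then slows while the transcription factor ATF4 is translated more, and ATF4 with C/EBP partners activates genes for amino acid synthesis, uptake and tRNA charging. ATF4 also activates the factors CHOP (Ddit3) and ATF3 and the feedback inhibitor Trib3. Because ATF4 is controlled largely at translation, its mRNA is only an indirect reading of its activity.

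The C/EBP-ATF composite element is the sequence that ATF4 and a C/EBP partner are known to bind, and it is shown because it is the best known shared feature of promoters in this pathway. It was searched as TGATGNAA on both strands, in RefSeq windows (GRCm38.p6) of 250 bases before to 50 bases after each annotated start. All 10 genes had a window, and Psat1 had 2, giving 11 windows. The word was present in 4 of these 11 windows, against 3.969% of all 32851 windows. The stretches that hold it are given 5′ to 3′ on the strand of the gene, with the word or its reverse complement in capitals. The Asns stretch is chr6:7693210-7693309 (minus strand), with the word at positions -23 to -16 from the start. The Atf3 stretch is chr1:191183390-191183489 (minus strand), with the word at -110 to -103. The Chac1 stretch is chr2:119351003-119351102 (plus strand), with the word at -193 to -186. The Trib3 stretch is chr2:152344028-152344057 (minus strand), with the word at 15 to 22 past the start.
Asns: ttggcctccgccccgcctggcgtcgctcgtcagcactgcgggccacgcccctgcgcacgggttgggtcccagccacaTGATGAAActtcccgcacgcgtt
Atf3: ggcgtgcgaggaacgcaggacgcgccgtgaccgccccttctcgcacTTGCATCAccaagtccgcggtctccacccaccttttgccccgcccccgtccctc
Chac1: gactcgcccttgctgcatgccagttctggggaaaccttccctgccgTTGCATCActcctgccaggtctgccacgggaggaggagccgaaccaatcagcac
Trib3: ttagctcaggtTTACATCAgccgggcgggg

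None of the 11 windows held the full cAMP response element TGACGTCA, which is in 1.79% of all windows. Nor did any hold the full-length endoplasmic reticulum stress element (in 0.119% of all windows) or the palindromic glucocorticoid response element (0.009%), both searched on both strands. A match is a description of the letters, and a missing match says only that these letters are not in these windows.

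Of the pluripotency genes, Pou5f1 lay between 3.93 and 6.24 and Zfp42 between 4.32 and 6.43 on all 10 arrays, under the median gene's mean of 6.68. Nanog lay between 4.48 and 6.85, Esrrb between 5.32 and 5.98, and Sox2, which neural cells also express, between 7.39 and 8.86. These are not all the pluripotency genes that were read, and by the summed level the rest reached above the median gene's mean on some arrays. Summed over the list of 8, the level was 9.12 to 10.58 on the log2 scale. Nkx2-1, the lung and thyroid lineage factor, lay between 4.45 and 5.00. By its quality probes the control array of day 8 differed from the other 9. Probes at the 3′ end exceeded those at the 5′ end by 4.80 for the dap spike-in there (1.35 to 2.68 elsewhere) and by 1.05 for beta-actin (0.46 to 0.62 elsewhere). For beta-actin this excess also differed by DCI at days 17 and 24. It was 0.54 to 0.62 on the DCI arrays and 0.48 to 0.52 on those without. At day 17 the dap excess was higher with DCI (2.49 and 2.68 against 1.61 and 1.82). So was that of the thr spike-in (2.06 and 2.23 against 1.52 and 1.67). At day 24 dap was lower with DCI and thr overlapped. The Gapdh, lys and phe controls overlapped over both days. The part of array quality in the DCI differences was not tested. In these bulk samples, fewer cells of a type and less RNA per cell cannot be told apart.

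Cultures with DCI had higher levels of 6 of the 10 genes and a lower level of 1. Asns, Trib3, Ddit3, Shmt2, Psat1 and Atf4 rose, by 0.19 to 0.57 on the log2 scale, Atf3 fell, and Chac1, Phgdh and Sesn2 did not pass. The test was limma's moderated test in an additive model of day, KGF and DCI over the 10 arrays, with p-values adjusted over all 18193 genes and the threshold at an adjusted p of 0.05. Errors are standard errors (SE), whose spread combines noise between arrays and departures from additivity. In this comparison 15.4% of all genes passed, 7.27% higher and 8.09% lower, and the median difference was 0.25 for the 10 genes against -0.01 for all genes. None of the 10 changed by 2-fold or more.

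**Figure D1:**
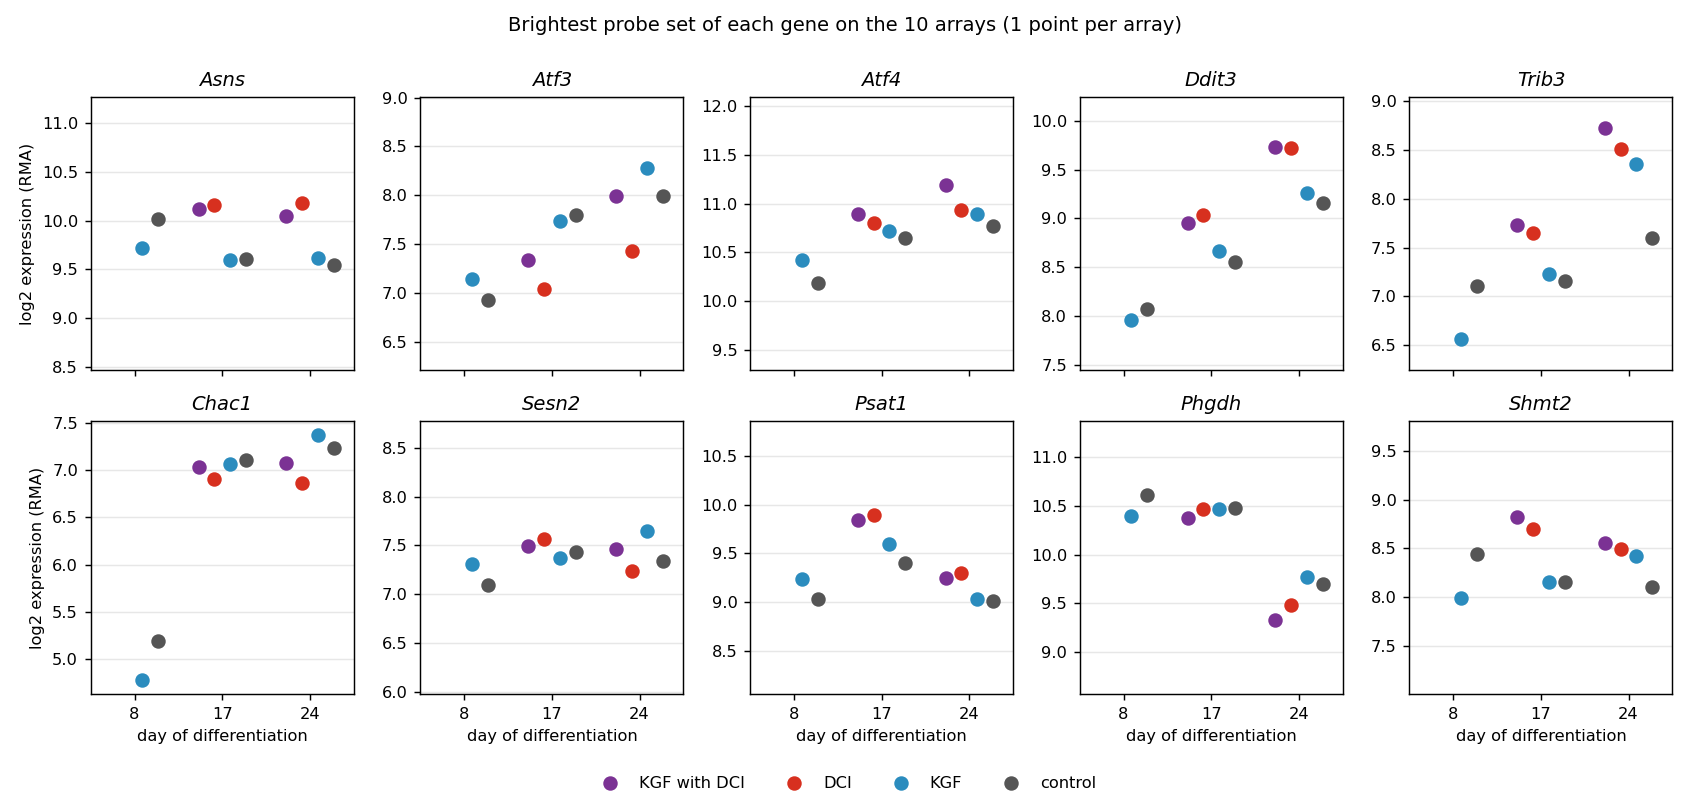
Log2 expression (RMA) of the brightest probe set of each of the 10 genes on the 10 arrays, by day of differentiation, with 1 point per array coloured by treatment. Each axis spans its own range of levels. Asns and Shmt2 have every DCI array of days 17 and 24 above every array of those days without DCI, and Chac1 is lowest on both day 8 arrays.

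Among the transcription factors, Atf4 was highest at day 24 with both treatments. At day 8 Atf4 read 10.42 with KGF and 10.19 in the control. At day 17 Atf4 read 10.89 with KGF and DCI, 10.80 with DCI, 10.72 with KGF and 10.65 in the control. At day 24 Atf4 read 11.19 with KGF and DCI, 10.94 with DCI, 10.90 with KGF and 10.77 in the control. Within each day the DCI cultures were above the cultures without DCI, but over both days the groups overlapped. The DCI difference was 0.19 ± 0.05 (adjusted p = 0.0261, 1.14-fold) and was positive in 4 of 4 matched pairs of arrays. The call was lost in 6 of 10 fits that left out 1 array: the day 17 KGF or DCI array, or any of the 4 day 24 arrays. In those 10 fits the difference was 0.16 to 0.22, with an adjusted p of up to 0.0899. A second Atf4 probe set, of the x_at class that can cross-hybridise, gave 0.22 without passing (adjusted p = 0.277), and another, dim one gave -0.02. The mean of the 3 probe sets gave 0.13 (adjusted p = 0.174).

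Ddit3 encodes CHOP, a C/EBP-family factor that ATF4 induces and that promotes cell death under long stress. At day 8 Ddit3 read 7.96 with KGF and 8.07 in the control. At day 17 Ddit3 read 8.96 with KGF and DCI, 9.03 with DCI, 8.67 with KGF and 8.56 in the control. At day 24 Ddit3 read 9.73 with KGF and DCI, 9.72 with DCI, 9.26 with KGF and 9.16 in the control. Each later day lay above the one before it, and the DCI cultures lay above the others within each day. With DCI, Ddit3 differed by 0.45 ± 0.06 (adjusted p = 0.00098, 1.36-fold), with the 4 pairs between 0.29 and 0.56, and it passed in all 10 fits that left out 1 array. The other Ddit3 probe set, which read 5.33 to 5.99 and so lay below the median gene's mean, gave -0.18 and did not pass (adjusted p = 0.463). With the mean of both probe sets the Ddit3 difference was 0.13 and the call was lost (adjusted p = 0.319).

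Atf3, a stress-induced factor that mostly represses transcription, went the opposite way with DCI. At day 8 Atf3 read 7.14 with KGF and 6.93 in the control. At day 17 Atf3 read 7.34 with KGF and DCI, 7.04 with DCI, 7.74 with KGF and 7.79 in the control. At day 24 Atf3 read 7.99 with KGF and DCI, 7.42 with DCI, 8.28 with KGF and 7.99 in the control. The DCI-alone culture was the lowest of its day at both times, and the day 24 culture with both treatments read the same as its control to 2 decimals. The DCI difference was -0.50 ± 0.10 (adjusted p = 0.00587, 1.42-fold lower), negative in 4 of 4 pairs, and it passed in all 10 fits that left out 1 array. Atf3 had 1 probe set.

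Of the regulators that ATF4 induces, Trib3 rose with DCI, whereas Chac1 and Sesn2 did not pass. Trib3 encodes a pseudokinase that binds and inhibits ATF4 and CHOP. At day 8 Trib3 read 6.56 with KGF and 7.11 in the control. At day 17 Trib3 read 7.73 with KGF and DCI, 7.65 with DCI, 7.23 with KGF and 7.16 in the control. At day 24 Trib3 read 8.72 with KGF and DCI, 8.51 with DCI, 8.36 with KGF and 7.60 in the control. The day 24 control stood below the other 3 arrays of its day. Over both days the groups with and without DCI overlapped, because the day 24 KGF array lay above both DCI arrays of day 17. With DCI, Trib3 differed by 0.57 ± 0.16 (adjusted p = 0.0368, 1.48-fold), with pairs between 0.36 and 0.92. It passed in 3 of 10 fits that left out 1 array, those without either day 8 array or without the day 24 KGF array. Over the 10 fits the difference was 0.40 to 0.70, and the adjusted p reached 0.122. The second Trib3 probe set rose by 0.44 (adjusted p = 0.0319).

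Chac1 encodes an enzyme that degrades glutathione and is among the transcripts most responsive to ATF4. At day 8 Chac1 read 4.77 with KGF and 5.19 in the control. At day 17 Chac1 read 7.03 with KGF and DCI, 6.90 with DCI, 7.07 with KGF and 7.10 in the control. At day 24 Chac1 read 7.07 with KGF and DCI, 6.86 with DCI, 7.37 with KGF and 7.23 in the control. The DCI arrays were lower in 4 of 4 pairs, by little at day 17. The difference was -0.22 ± 0.11 and did not pass (adjusted p = 0.243).

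Sesn2 encodes sestrin 2, a leucine sensor that restrains mTORC1. At day 8 Sesn2 read 7.31 with KGF and 7.10 in the control. At day 17 Sesn2 read 7.49 with KGF and DCI, 7.56 with DCI, 7.37 with KGF and 7.43 in the control. At day 24 Sesn2 read 7.47 with KGF and DCI, 7.23 with DCI, 7.65 with KGF and 7.34 in the control. Its range over the 10 arrays, 0.55, was the smallest of the 10 genes. The DCI arrays were higher in both day 17 pairs and lower in both day 24 pairs, and the difference was -0.01 ± 0.10 (adjusted p = 0.98). The other Sesn2 probe set gave -0.06.

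Asns, the enzyme that makes asparagine from aspartate and glutamine and a classical ATF4 target, separated the cultures by DCI most cleanly. At day 8 Asns read 9.72 with KGF and 10.02 in the control. At day 17 Asns read 10.12 with KGF and DCI, 10.16 with DCI, 9.59 with KGF and 9.61 in the control. At day 24 Asns read 10.05 with KGF and DCI, 10.18 with DCI, 9.62 with KGF and 9.55 in the control. The 4 DCI arrays lay between 10.05 and 10.18, all above the 4 arrays of the same days without DCI, which lay between 9.55 and 9.62. On this probe set the day 8 control was close to the DCI arrays. On the other Asns probe set it read 9.58, below the DCI arrays (9.86 to 10.05) and among those without DCI (9.36 to 9.68). Only Asns and Shmt2 of the 10 genes had groups that did not overlap over days 17 and 24, both higher with DCI, where 10.7% of all genes had such groups (5.05% higher, 5.65% lower). The Asns difference was 0.54 ± 0.06 (adjusted p = 0.000279, 1.45-fold), with pairs between 0.43 and 0.63. It passed in all 10 fits that left out 1 array, and the other Asns probe set rose by 0.44 (adjusted p = 0.000708).

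The serine pathway enzymes divided. Phgdh catalyses the first step of serine synthesis from a glycolytic intermediate, Psat1 the next, and Shmt2 passes a carbon of serine to mitochondrial folate. At day 8 Shmt2 read 7.99 with KGF and 8.44 in the control. At day 17 Shmt2 read 8.82 with KGF and DCI, 8.69 with DCI, 8.15 with KGF and 8.15 in the control. At day 24 Shmt2 read 8.55 with KGF and DCI, 8.49 with DCI, 8.42 with KGF and 8.11 in the control. The groups with and without DCI were well apart at day 17 and close at day 24, where the DCI and KGF arrays differed little. The DCI difference was 0.43 ± 0.12 (adjusted p = 0.0319, 1.35-fold), positive in 4 of 4 pairs. It passed in 3 of 10 fits that left out 1 array, those without either day 8 array or without the day 24 KGF array, with values of 0.36 to 0.55 and an adjusted p of up to 0.114. The 3 other Shmt2 probe sets gave 0.18 to 0.29 and none passed. With a prior variance that did not depend on the level of a gene, the DCI calls of Atf4, Trib3 and Shmt2 were all lost (adjusted p = 0.0974 for Atf4, 0.0615 for Trib3 and 0.0575 for Shmt2).

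At day 8 Psat1 read 9.24 with KGF and 9.03 in the control. At day 17 Psat1 read 9.84 with KGF and DCI, 9.89 with DCI, 9.59 with KGF and 9.41 in the control. At day 24 Psat1 read 9.24 with KGF and DCI, 9.30 with DCI, 9.03 with KGF and 9.01 in the control. The DCI arrays were the higher ones within each day, and the day 17 arrays were all above the day 24 arrays. With DCI, Psat1 differed by 0.31 ± 0.07 (adjusted p = 0.00998, 1.24-fold), positive in 4 of 4 pairs and past the threshold in all 10 fits that left out 1 array. The second Psat1 probe set rose by 0.37 (adjusted p = 0.0477).

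At day 8 Phgdh read 10.40 with KGF and 10.61 in the control. At day 17 Phgdh read 10.37 with KGF and DCI, 10.46 with DCI, 10.46 with KGF and 10.47 in the control. At day 24 Phgdh read 9.33 with KGF and DCI, 9.49 with DCI, 9.77 with KGF and 9.70 in the control. Days 8 and 17 lay together and day 24 lay below them. The DCI difference was -0.19 ± 0.07 and did not pass (adjusted p = 0.109), and the 3 other Phgdh probe sets gave -0.21 to -0.07.

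**Figure D2:**
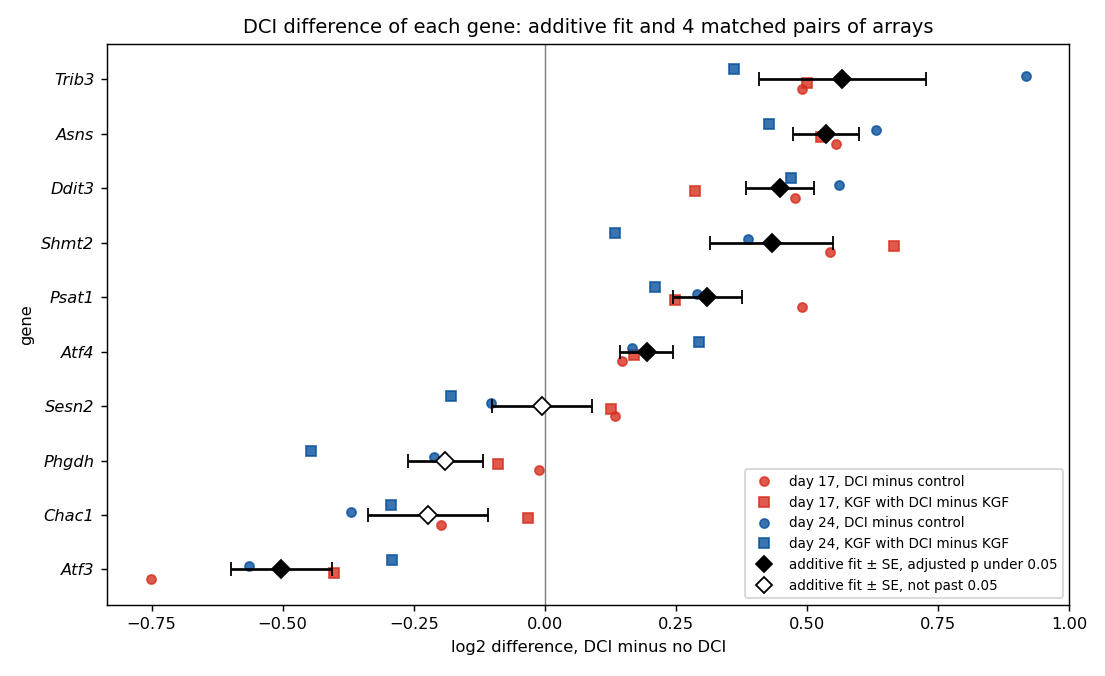
DCI differences of the 10 genes on the log2 scale. Diamonds with bars are the additive fit ± SE (filled where the adjusted p is under 0.05), and the smaller points are the 4 matched pairs of single arrays by day and KGF. Asns, Trib3, Ddit3, Shmt2, Psat1 and Atf4 are above 0 in all 4 pairs, Atf3, Chac1 and Phgdh are below 0 in all 4, and Sesn2 lies on both sides.

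By day, with the DCI effect allowed to differ between days in a model of the 8 arrays of days 17 and 24, 5 of the 10 genes passed at day 17, where 9.64% of all genes did (5.63% higher, 4.01% lower). Asns (0.54), Shmt2 (0.60), Ddit3 (0.38) and Psat1 (0.37) rose and Atf3 (-0.58) fell. Asns and Shmt2 passed in all 8 fits that left out 1 of those arrays. When either the DCI or the control array of day 17 was left out, the Ddit3, Psat1 and Atf3 calls were lost, and without the day 17 KGF with DCI array those of Psat1 and Atf3. Over the 8 fits Ddit3 was 0.31 to 0.46 (adjusted p up to 0.168), Psat1 0.26 to 0.48 (up to 0.201) and Atf3 -0.80 to -0.36 (up to 0.185). With the level-independent prior, Ddit3, Psat1 and Atf3 did not pass either (adjusted p = 0.0672 for Ddit3, 0.0908 for Psat1 and 0.0782 for Atf3). With probe sets averaged, Ddit3 was 0.02 at day 17 and did not pass (adjusted p = 0.955), nor did Shmt2 at 0.38 (adjusted p = 0.0751). The Shmt2 call at day 17 came from its brightest probe set alone, as the 3 others gave 0.24 to 0.35 and did not pass. The other Asns probe set rose by 0.37 (adjusted p = 0.00646) and the second Psat1 set 0.53 (adjusted p = 0.00178).

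At day 24, 7 of the 10 passed, where 19.4% of all genes did (7.99% higher, 11.4% lower). Trib3 (0.64), Asns (0.53), Ddit3 (0.52), Psat1 (0.25) and Atf4 (0.23) rose, and Atf3 (-0.43) and Phgdh (-0.33) fell. Asns and Ddit3 passed in all 8 fits that left out 1 array. Phgdh lost its call without the day 24 KGF or KGF with DCI array (-0.41 to -0.25, adjusted p up to 0.114), and Trib3 without the day 24 control, DCI or KGF with DCI array (0.32 to 0.96, up to 0.127). Atf3, Atf4 and Psat1 lost theirs in 5, 5 and 6 of the 8 fits: all 3 without the day 17 DCI, day 17 KGF with DCI, day 24 control or day 24 KGF array, Atf3 also without the day 24 DCI array, Atf4 without the day 24 KGF with DCI array and Psat1 without either. Their differences ran from -0.62 to -0.23 for Atf3, from 0.15 to 0.31 for Atf4 and from 0.20 to 0.31 for Psat1. With the level-independent prior, Asns and Ddit3 passed and the other 5 calls were lost, with adjusted p-values between 0.0602 (Trib3) and 0.151 (Atf4). With probe sets averaged, Atf4 (0.09), Ddit3 (0.25), Phgdh (-0.25) and Atf3 (-0.43) did not pass, and Chac1 did at -0.33 (adjusted p = 0.0386). The Phgdh difference with DCI at day 24 was -0.28 to -0.19 on the 3 other probe sets, which did not pass.

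The difference between the days was itself tested, and none of the 10 genes passed in limma, where 456 genes (2.51%) did, 0.533% higher and 1.97% lower. At an unadjusted p under 0.05 there were 2 of the 10, Shmt2 (-0.34 ± 0.13, adjusted p = 0.226) and Phgdh (-0.28 ± 0.10, adjusted p = 0.208), both with a lower DCI difference at day 24. The other Shmt2 probe sets gave -0.34 to 0.11 for this term. For the interaction of KGF with DCI, limma called none of the 18193 genes (smallest adjusted p = 0.999778, median SE 0.20), and 267 had an unadjusted p below 0.05, none of them among the 10.

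The other genes of the pathway and of neighbouring stress responses were read from 9 lists, of which 106 of 124 named symbols were measured. Of 10 carriers that bring amino acids into the cell, 7 rose with DCI and none fell, against 7.27% of all genes higher and 8.09% lower, with a median of 0.35 against -0.01 for all genes. Slc1a5, a glutamine carrier, rose by 0.67, Slc1a4 by 0.53 and Slc7a5, the large neutral amino acid carrier, by 0.47. The other Slc1a5 probe set gave 0.15 and did not pass. Of 13 other enzymes of serine, one-carbon and transamination metabolism, 9 rose and none fell, with a median of 0.28. Cth and Cbs, which make cysteine from homocysteine, rose by 1.30 and 1.22, and Aldh1l2, a mitochondrial folate enzyme, by 0.59. The other Cbs probe set rose by 0.49.

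Of 13 aminoacyl-tRNA synthetases, 1 rose (Wars, 0.29), a share near the 7.27% of all genes that rose, with a median of 0.11. Of 13 eIF2 kinases and feedback genes, 2 rose, the stress-inducible Nupr1 (0.34) and the mTORC1 inhibitor Ddit4 (0.33), with a median of 0.11. The GCN2 gene Eif2ak4 (-0.16) and the PERK gene Eif2ak3 (0.12) did not pass. Of 10 other ATF4 or CHOP targets, 3 rose: Stc2 (0.59), the endoplasmic reticulum oxidase Ero1a (0.53) and Vldlr (0.27), whose 5 other probe sets gave 0.01 to 0.41. The list's median was 0.08.

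Chaperones and sensors of the endoplasmic reticulum unfolded protein response had a median of -0.02, and of 18 genes Dnajb9 rose (0.28) and Sdf2l1 fell (-0.26). These shares are near those of all genes, of which 7.27% rose and 8.09% fell. Of 11 p53 targets none rose and 2 fell, Sesn1 (-0.65), a relative of Sesn2, and Ccng1 (-0.16), with a median of -0.07. Of 12 immediate early genes 2 rose and 2 fell, with a median of -0.04. The largest of these changes were Egr2 (-0.93), Nr4a1 (0.59) and Myc (0.53). Of 8 targets of the oxidant sensor NRF2, 4 rose, with a median of 0.25, among them Nqo1 (0.68), Gclc (0.63), which makes glutathione, and the cystine carrier Slc7a11 (0.41), which is on the list of carriers too. Slc7a11 was dim, at 3.33 to 4.28 against the median gene's mean of 6.68, and its other probe set gave 0.33 without passing.

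Markers of other cells moved with DCI beside these genes. Of all genes, 7.27% rose and 8.09% fell over both days. At day 17 5.63% rose and 4.01% fell, and at day 24 7.99% rose and 11.4% fell. In the test of DCI by day 1.97% passed as lower. Of 13 macrophage markers 12 fell, with a median of -3.01. Their summed level on the log2 scale was 12.01 to 12.74 on the DCI arrays and 14.19 to 14.52 on the arrays of the same days without DCI, so the groups did not overlap. Of 12 general epithelial markers 7 rose and 1 fell, with a summed level of 13.79 to 14.63 with DCI and 13.46 to 14.18 without, and of 12 mitosis and DNA replication genes 3 fell. Of 9 liver and yolk sac markers 7 rose with DCI at day 17 (median 1.06), whereas 5 fell and 2 rose at day 24 (median -0.88), and 7 passed as lower in the test of DCI by day. Macrophage markers fell in 12 of 13 cases at each day, with medians of -2.17 at day 17 and -3.71 at day 24. The 8 neuronal markers had a summed level of 11.17 to 11.62 with DCI and 9.80 to 10.40 without, though only 1 rose and 1 fell. Their median difference was -0.08, with 3 of 8 above 0, so the higher sum does not describe most of the list. Among 8 pluripotency markers none passed over both days (median 0.59), and at day 24, 3 rose and 1 fell (median 0.91). Among 8 alveolar type II markers 1 rose, with a summed level of 9.56 to 11.58 with DCI and 9.54 to 11.65 without. All 6 glucocorticoid response genes rose, with a median of 1.49. The part of these cell populations in the levels of the 10 genes was not tested.

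**Figure D3:**
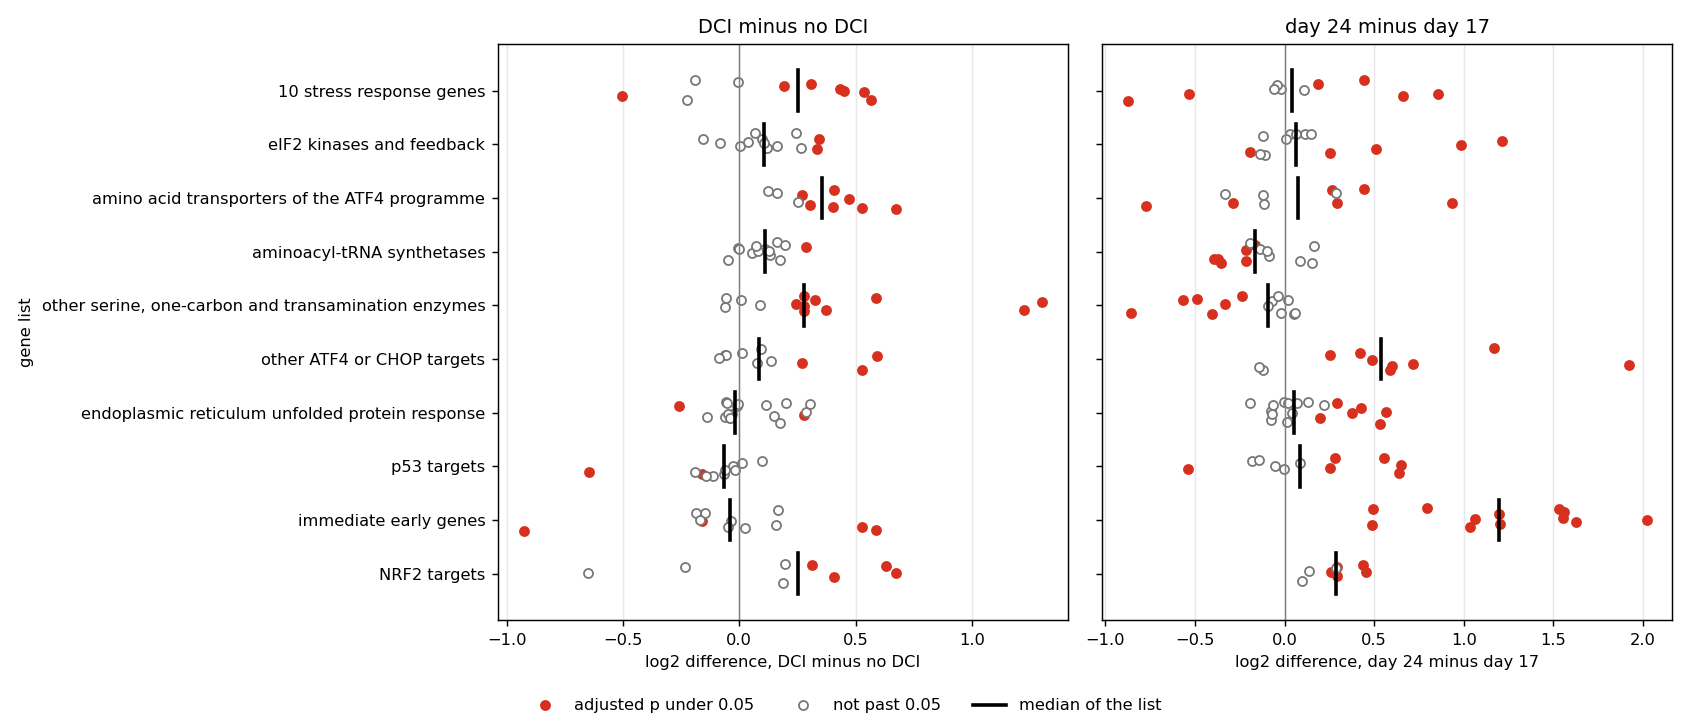
Log2 differences of the 10 stress response genes and of the genes on the 9 lists for DCI minus no DCI and for day 24 minus day 17, with 1 point per gene, filled where the adjusted p is under 0.05, and a bar at the list's median. The carriers and the other serine and one-carbon enzymes lie mostly above 0 with DCI, and the immediate early genes and other ATF4 or CHOP targets lie mostly above 0 at day 24.

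Single arrays of cultures with both treatments set against the control of the same day gave a median difference of 0.32 over the 10 genes at day 17 and 0.32 at day 24, against 0.00 and -0.01 over all genes. At day 17 none of the 10 differed by 2-fold or more, where 2.93% of all genes did. At day 24 Trib3 did, by 1.13 (8.72 with both treatments and 7.60 in the control), where 4.75% of all genes did. Asns was higher with both treatments by 0.51 and 0.50, and Atf4 by 0.24 and 0.42. Atf3 was lower by 0.45 at day 17 and the same at day 24. These pairs share their arrays with the comparisons above and have no replicate check.

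With KGF, none of the 10 genes passed in limma, where 1 of 18193 genes (0.0055%) did. Without adjustment, 1466 genes had a p below 0.05, of which 2 were among the 10. These were Atf4, by 0.15 ± 0.05 (adjusted p = 0.399), higher in 5 of 5 pairs of arrays, and Atf3, by 0.26 ± 0.09 (adjusted p = 0.449), higher in 4 of 5. That rise of Atf4 was on its brightest probe set only. Its other probe sets went the opposite way, the x_at one by -0.21 and the dim one by -0.17, without passing. The differences of the other genes of the 10 lay between -0.08 and 0.12. Trib3 showed the widest spread over the KGF pairs, from -0.55 at day 8 to 0.77 at day 24 without DCI.

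From day 17 to day 24 the transcription factors and Trib3 rose while the serine synthesis enzymes fell. Of the 10 genes 6 passed, 4 higher and 2 lower, where 37.3% of all genes passed (14.8% higher, 22.5% lower). The share that fell was thus near that of all genes. Trib3 rose by 0.86 ± 0.16 (adjusted p = 0.00198, 1.81-fold), Ddit3 by 0.66 ± 0.06 (adjusted p = 2.94e-05), Atf3 by 0.44 ± 0.10 (adjusted p = 0.00496) and Atf4 by 0.19 ± 0.05 (adjusted p = 0.015). The dim second Ddit3 probe set gave 0.09 and did not pass (adjusted p = 0.62), and with both averaged Ddit3 rose by 0.38 (adjusted p = 0.00449). All 4 genes were higher at day 24 in 4 of 4 pairs of arrays matched for treatment. The Atf4 call was lost without the day 17 or the day 24 array with KGF and DCI (0.15 to 0.21 over the fits that left out 1 array, adjusted p up to 0.0649) and with the level-independent prior (adjusted p = 0.0574). The second Atf4 probe set rose more, by 0.70.

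Phgdh fell by 0.87 on the log2 scale (SE 0.07, adjusted p = 9.43e-06, 1.83-fold) and Psat1 by 0.53 (SE 0.07, adjusted p = 0.000152, 1.45-fold), each in 4 of 4 pairs. All 4 Phgdh probe sets fell, by between 0.51 and 0.87, and the other Psat1 probe set fell by 0.65. Phgdh, Psat1 and Ddit3 were the members whose day 24 and day 17 arrays did not overlap. That share is near the 29.8% of all genes that had such arrays (11% higher, 18.8% lower). Shmt2 (-0.06), Asns (-0.02), Sesn2 (-0.04) and Chac1 (0.11) did not pass, although the other Asns probe set fell by 0.20 (adjusted p = 0.0238).

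Around them, 8 of 10 other ATF4 or CHOP targets rose and none fell, where 14.8% of all genes rose and 22.5% fell, with a median of 0.54 against -0.01 for all genes. Fgf21, a hormone of the starvation response, rose by 1.92 and Ero1a by 1.17. Of 13 other serine, one-carbon and transamination enzymes 6 fell and none rose, with a median of -0.09, led by Shmt1 (-0.86), Psph (-0.57), which completes serine synthesis, and Mthfd1 (-0.49). The other probe sets gave -0.70 to 0.02 for Shmt1 and -0.41 to 0.01 for Mthfd1, with 1 of each past the threshold. Of 13 tRNA synthetases 6 fell and none rose, with a median of -0.17, among them Tars (-0.39), Iars (-0.37) and Lars (-0.35).

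Of 10 carriers 4 rose and 2 fell, with Slc1a5 at 0.93 and Slc7a3 at -0.77, and a median of 0.08. For these and the next lists, 14.8% of all genes rose and 22.5% fell. The other Slc1a5 probe set gave 0.13 and did not pass. Of the eIF2 kinases and feedback genes 4 of 13 rose and 1 fell, with a median of 0.07, including Nupr1 (1.21), the eIF2 phosphatase subunit Ppp1r15a (0.98) and Cebpb (0.51), a partner of ATF4. Among the unfolded protein response genes 6 of 18 rose, with a median of 0.05. Of 11 p53 targets 5 rose and 1 fell (median 0.09), and of 8 NRF2 targets 5 rose (median 0.29).

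Other programmes moved with day as well, where 14.8% of all genes rose and 22.5% fell. All 12 immediate early genes rose, with a median of 1.20, and all 12 mitosis and DNA replication genes fell, with a median of -1.58 and a summed level of 11.83 to 12.18 at day 24 and 13.24 to 13.43 at day 17. Of 12 general epithelial markers 9 rose, with a summed level of 13.95 to 14.63 at day 24 and 13.46 to 14.09 at day 17. Of 13 macrophage markers 8 fell and 1 rose, with summed levels that overlapped between the days. The part of these in the levels of the 10 genes was not tested.

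**Figure D4:**
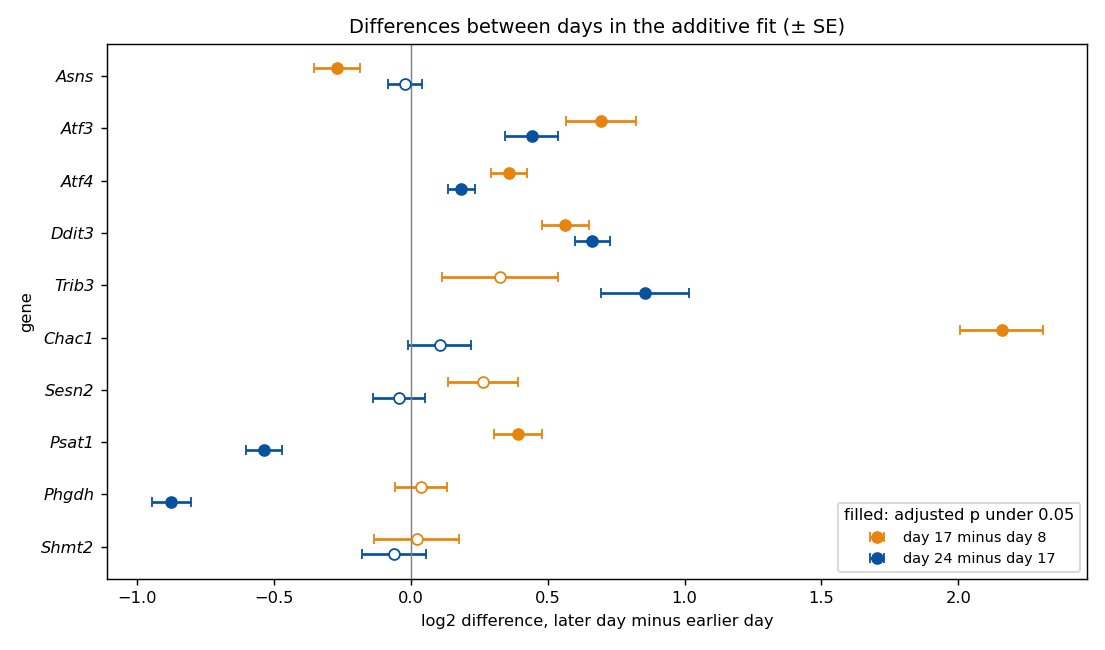
Differences between days in the additive fit for the 10 genes, on the log2 scale ± SE, for day 17 minus day 8 and day 24 minus day 17, filled where the adjusted p is under 0.05. Chac1 shows the largest difference, 2.16 from day 8 to day 17, and Phgdh the largest fall, -0.87 from day 17 to day 24.

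From day 8 to day 17, 6 of the 10 genes passed, 5 higher and 1 lower, where 42.4% of all genes passed (21.4% higher, 21% lower). Chac1 rose most, by 2.16 ± 0.15 (adjusted p = 1.03e-06, 4.46-fold), and both day 8 arrays lay below all 8 later ones. Atf3 rose by 0.69 ± 0.13 (adjusted p = 0.00125), Ddit3 by 0.57 ± 0.09 (adjusted p = 0.000312), Psat1 by 0.39 ± 0.09 (adjusted p = 0.00402) and Atf4 by 0.36 ± 0.07 (adjusted p = 0.00129). Asns fell by 0.27 on the log2 scale (SE 0.08, adjusted p = 0.0239). Trib3 (0.33), Sesn2 (0.26), Phgdh (0.04) and Shmt2 (0.02) did not pass. In these data the earlier day is 2 arrays, of which the control stood apart.

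Leaving out 1 array changed several of these calls. Without the day 8 control, Psat1 lost its call (adjusted p = 0.0591), Asns lost its own and Trib3 passed at 0.74 (adjusted p = 0.0198). Asns also lost its call without the day 17 control, and Sesn2 passed without the day 17 KGF array. Over the fits that left out 1 array the Asns difference ran from -0.40 to -0.14 (adjusted p up to 0.296), and with the level-independent prior it did not pass (adjusted p = 0.0599). With probe sets averaged, Ddit3 (0.21), Atf4 (0.14) and Asns (-0.14) did not pass and Sesn2 did, at 0.28 (adjusted p = 0.0322). Probe sets of 1 gene did not all move alike: the other Asns probe set gave -0.02 (adjusted p = 0.884), the second Psat1 set 0.22 (adjusted p = 0.247), the second Atf4 set 0.09 (adjusted p = 0.689) and the dim second Ddit3 set -0.14 (adjusted p = 0.581). One other Shmt2 set rose by 0.46 (adjusted p = 0.0372) and one other Phgdh set by 0.44 (adjusted p = 0.0268). Chac1 and Atf3 had a single probe set each.

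On the lists, 6 of 10 other ATF4 or CHOP targets rose and 1 fell from day 8 to day 17, where 21.4% of all genes rose and 21% fell, with a median of 0.71 against -0.02 for all genes. Fgf21 rose by 2.05, Stc2 by 0.97, and Vldlr fell (-1.36). Nupr1 rose by 4.88 and Cebpb by 3.07 among 13 eIF2 kinases and feedback genes, of which 4 rose and 3 fell (median -0.03). Of 10 amino acid carriers 3 rose and 2 fell (median -0.02), of 13 tRNA synthetases 2 rose and 4 fell (median -0.08), and of 13 other serine, one-carbon and transamination enzymes 4 rose and 4 fell (median -0.07). Slc3a2, the shared heavy chain of several carriers, rose by 0.63, and Aldh1l2 by 2.07. Among the unfolded protein response genes 6 of 18 rose and 2 fell (median 0.03), and of 8 NRF2 targets 3 rose (median 0.19). Of 11 p53 targets 9 rose, with a median of 0.77, and of 12 immediate early genes 8 rose. All 13 macrophage markers rose, with a median of 5.28, and all 12 mitosis and DNA replication genes fell, with a median of -0.92. Their part in the levels of the 10 genes was not tested.

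The day 8 pair also differed by the kind of probe set. Of the 10 x_at probe sets of these genes, 9 read lower with KGF than in the control, with a median of -0.25, and of the 10 without a letter before the ending 4 read lower, with a median of 0.14. Over all x_at probe sets with 1 symbol, 31.5% read higher with KGF at day 8, with a median of -0.10, against 46.8% and -0.02 over those without a letter. At day 24 the x_at median was 0.01. For Shmt2 the brightest set read 0.46 lower and another 0.66 higher with KGF, and for Psat1 one read 0.21 higher and the other 0.51 lower. For Asns, Atf4, Psat1, Phgdh and Shmt2 the direction of the KGF difference at day 8 therefore depended on the probe set chosen. The probe sets of Sesn2, Ddit3 and Trib3 agreed in direction.

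**Figure D5:**
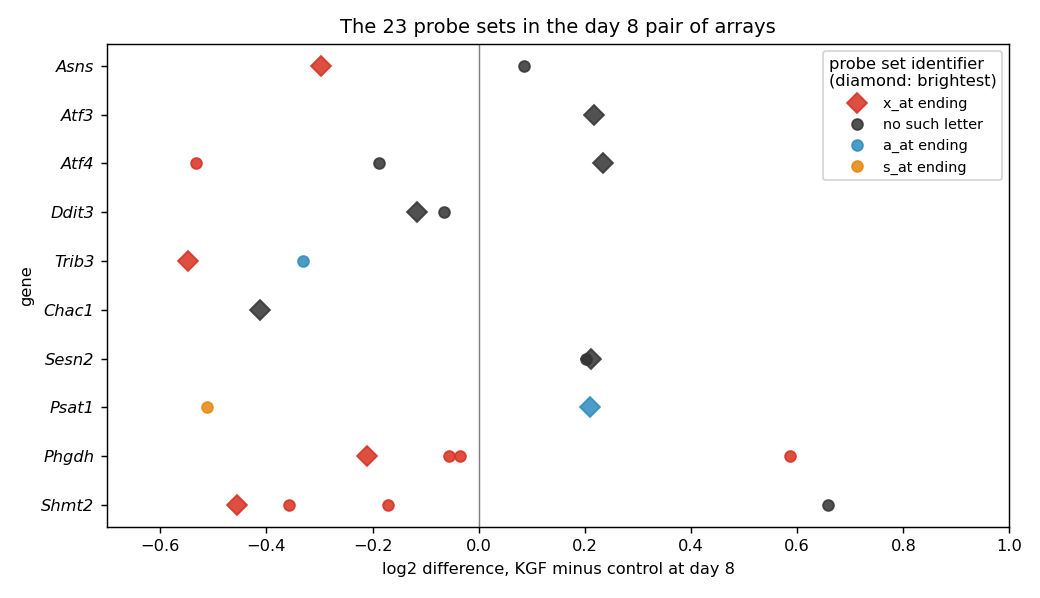
KGF minus control at day 8, on the log2 scale, for each of the 23 probe sets of the 10 genes, with 1 point per probe set coloured by the ending of its identifier and a diamond for the brightest. Several genes have probe sets on both sides of 0, and the x_at sets lie mostly below it.

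The likeness of the genes' patterns was measured as Pearson's r of values centred on the mean of their day, over the 8 arrays of days 17 and 24, as a description that the shared DCI design and the shared arrays shape. Asns was most like Ddit3 (0.97), then Psat1 (0.94) and Shmt2 (0.87) among the 10 genes. Atf4 was most like Trib3 (0.88), and Atf3 most like Chac1 (0.87). Asns and Atf3 ran in opposite directions (-0.86). Sesn2 and Phgdh had no such close neighbour, at most 0.54 and 0.67, both with Chac1.

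Among all genes with a mean at or above the median gene's, the most alike were Bmper, Cdk2ap2 and Ppp1r3c for Asns, Cd55, Snhg6 and Mgst2 for Ddit3, and Rab3d, Krtcap2 and Malsu1 for Psat1. For Shmt2 they were Egln3, Bag3 and Lgals9, for Atf4 Dym, Yipf6 and Dsc2, and for Trib3 Mansc1, Spty2d1 and Cxcl5. For Atf3 they were Ubtd1, Nt5c2 and Nr1d2, for Chac1 Frmd8, Npnt and Cadm1, for Phgdh Cpped1, Nagk and Slc9a3r1, and for Sesn2 Xpa, Gga3 and Cog7. The r of these genes lay between 0.96 and 1.00.

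Set beside the promoter windows shown above, the 4 genes that held the C/EBP-ATF word had DCI differences of 0.54 (Asns), 0.57 (Trib3), -0.50 (Atf3) and -0.22 (Chac1, which did not pass). Of the 6 genes without it in the window, Ddit3, Shmt2, Psat1 and Atf4 rose, and Phgdh and Sesn2 did not pass. Genes with and without the word were thus found among those that rose and those that did not.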

How the data were processed

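The values, which the authors deposited on the log2 scale, cover 45101 probe sets on each of 10 Affymetrix arrays. Per the submitters' processing notes they are RMA values, and the sources used here do not give whether all arrays entered 1 normalisation. Since RMA equalises the arrays' distributions, differences are relative to other genes, and those of dim genes are understated.

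Gene symbols came from GEO's platform annotation (34945 probe sets with 1 symbol, 932 with several, 9160 with none and 64 controls). Each gene took its brightest single-symbol probe set, and no gene was filtered out. Differences were fitted with limma 3.58.1 (R 4.3.3; lmFit, eBayes with a mean trend) in which day, KGF and DCI were additive over 10 arrays (5 residual degrees of freedom), and interactions over the 8 arrays of days 17 and 24 (3 residual degrees of freedom). Benjamini-Hochberg adjustment ran over the 18193 genes, and for a gene's other probe sets over a fit of all single-symbol probe sets. With 1 array per condition, p-values measure only array noise and departure from additivity, and their precision is limited by how few arrays there are. The fits were tested on data simulated from the additive model with independent noise. Such data cannot show how departures from additivity or array quality affect the calls.

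The 10 genes and the lists were chosen with earlier results of these data known. The text names all 10 genes, up to 3 list members with the largest passing differences per comparison, and the 3 most alike genes of each. Eif2ak3 and Eif2ak4 were named as the PERK and GCN2 genes after their values were seen. Alternatives were another variance model, a filter on dim genes, other ways to take a value per gene, a second quantile normalisation, a 2-fold size, fewer arrays, and each array left out. Promoter windows came from RefSeq tables of GRCm38.p6. Plots used matplotlib 3.10.9 (Python 3.11.15).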

Additional observations from a re-analysis of the deposited data

Results flagged for a closer look

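On its brightest probe set only, Sesn2 differed with KGF in opposite directions at days 17 and 24. At day 17 it read lower with KGF in both pairs of arrays, with differences of -0.0688 with DCI present and -0.0606 without DCI, and at day 24 higher, with differences of 0.2327 with DCI present and 0.3082 without. The other Sesn2 probe set did not show this change of direction. At day 17 it read slightly higher with KGF in both pairs. At day 24 it read lower with KGF without DCI (6.8438 against 6.9321) and higher with DCI present (6.9249 against 6.7468). The difference between the days was not tested, and each difference comes from 2 single arrays.

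From the lists, the DCI difference of Jun, an immediate early factor that pairs with ATF3, was lower at day 24 than at day 17, with a log2 difference of -0.4233 (adjusted p = 0.0343, limma). That of Hmox1, a haem-degrading enzyme that NRF2 and stress induce, was lower, with a difference of -0.95 (adjusted p = 0.0437). At day 24 itself, the DCI difference was -0.36 for Jun and -1.12 for Hmox1.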

How the results depend on the processing

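The alternatives were run for the 10 genes and the counts of genes passing, not for the list genes, and none of the values of the 10 genes that passed changed direction. Asking for a 2-fold size in addition left 0 of the 10 genes for DCI (432 of all genes), 0 at day 17 (419), 0 at day 24 (646), 0 for day 24 against day 17 (734), 1 for day 17 against day 8 (2355) and 230 genes for DCI by day. Without a mean trend, the members called were 4 for DCI, 2 at day 17 (1061 of all genes) and 2 at day 24, with 0 genes for KGF and 138 for DCI by day. With all probe sets of a gene averaged, the members called were 3 at day 17 and 4 at day 24, with 0 genes for KGF and 223 for DCI by day. The main fit called 7 members for DCI (2793 of all genes), 5 at day 17 (1754) and 7 at day 24 (3523). For these settings a count of all genes is printed only where it moved markedly from the main fit. With every probe set fitted by itself, the calls were 10442 for day 24 against day 17, 12430 for day 17 against day 8, 2632 for DCI at day 17, 734 for DCI by day and 0 for KGF. KGF called 2 genes without the lowest 40% of genes, 65 on the 8 arrays of days 17 and 24, and 2 with the brightest probe set without a letter in its ending, an alternative chosen after seeing the data. Under that last one, Asns fell from day 17 to day 24 and not from day 8 to day 17. Shmt2 lost its DCI call (0.29) and that at day 17 (0.24), and passed for DCI at day 24 (0.35) and for day 17 against day 8 (0.46). Psat1 lost its DCI call at day 24 (adjusted p = 0.0521).

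Leaving out each array in turn gave 1638 to 2834 genes for DCI (4 to 7 of the 10), 697 to 1695 for DCI at day 17 (2 to 6), 2090 to 3714 for DCI at day 24 (3 to 7), 143 to 454 for DCI by day and 0 to 65 for KGF. The lowest DCI count, 1638, was without the day 24 control, and 1821 genes passed without the day 24 DCI array. The cause of these moves was not tested, beyond the fewer arrays or the added size.

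No paired analysis was possible because the labels give no replicate numbers to pair by, and the match of arrays by day and KGF is already a term of each fit. With 3 or 5 residual degrees of freedom, a gene that misses the threshold is not shown to be unchanged, and dim probe sets have compressed differences.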
